A study of Homo sapiens with 17 samples.

Results

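The comparison set tumors that CHP-134 cells formed in mice given a retinoid against CHP-134 cells in culture given a retinoid, which are the retinoid-exposed end states of the study. CHP-134 is an established human neuroblastoma cell line with amplification of MYCN, the transcription factor gene that drives aggressive forms of this tumor of the sympathetic nervous system. It took 6 of the 17 libraries of the series, 4 of RA tumors and 2 of ATRA cells, and was read over protein-coding genes only. The 2 count tables were joined on gene identifier, which left 19882 protein-coding genes, of which 15404 passed the filter on low counts.

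The ATRA cells were grown in RPMI1640 medium with serum and held 2 µM all-trans retinoic acid (ATRA) for 6 days. Their RNA is that of the cells left at that time. The paper reports that most cells of this line die under this treatment. It describes the small share that survives as neuron-like in shape. These data do not measure that death, so the ATRA cells stand for survivors and not for the whole culture. The RA tumors came from luciferase-labelled CHP-134 cells injected under the skin of female athymic nude mice of about 12 weeks, which lack T cells. These mice received 13-cis-retinoic acid (RA) by oral gavage at 25 mg/kg with 2 doses per day. The study's dosing schedule was of 12 weeks, and the tumors in which it measured retinoids were taken no more than 2 weeks after the last dose. For each sequenced tumor the time from last dose to collection is not known here. Control tumors (n = 5) came from the same model without RA, and DMSO cells (n = 2) held the solvent alone. ATRA and 13-cis-retinoic acid are stereoisomers, and 13-cis-retinoic acid isomerizes to ATRA in the body. Dose, route, time and retinoid all differed between the RA tumors and the ATRA cells, so their values stand side by side and are no measure of how 1 retinoid acts against the other. RNA of the cells went through Illumina's Stranded Total RNA Prep (Ribo-Zero Plus), and that of the tumors through Roche's KAPA RNA HyperPrep (RiboErase). Both remove ribosomal RNA. The kit changed together with the place of growth, so in every comparison of tumors with cells the 2 cannot be told apart. In bulk RNA, fewer cells of a type and less RNA per cell cannot be told apart either.

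Retinoic acid enters the nucleus on small binding proteins and activates the receptors RARA, RARB and RARG, which bind DNA in pairs with the RXR receptors. Without ligand the receptors hold corepressors, and with ligand they exchange them for coactivators. Classical targets include RARB itself, the CYP26 enzymes that degrade retinoic acid, the receptor tyrosine kinase gene RET and the HOX genes at the 3′ ends of their clusters. In neuroblastoma, retinoids are known for stopping division and for driving neuron-like differentiation, and 13-cis-retinoic acid is given to patients after chemotherapy.

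Totals ran from 32201848 to 33489977 counts in the ATRA cells and from 17326052 to 29078822 in the RA tumors. On log2(CPM + 1) values the 2 ATRA libraries correlated at r = 0.9986, the RA tumors with each other at 0.9904 to 0.9959, and tumors with cells at 0.909 to 0.9113. These correlations are across genes of the same libraries and are given as a description. All 11 neuroblastoma identity genes, including MYCN and GATA3, were above 1 CPM (counts scaled to a library size of 1e6) in both groups. Of 12 endothelial markers, the summed level was 151 to 163 CPM in the ATRA cells, nearly all of it CLDN5 at 144 and 155 CPM, and 5.81 to 7.93 CPM in the RA tumors. The 19 leukocyte markers summed to 1.04 to 1.3 CPM in the cells, with 13 at 0, and to 2.31 to 3.74 CPM in the tumors, with 3 at 0. Fibroblast markers, 13 in all, summed to 137 to 141 CPM in the cells and 94.7 to 124 CPM in the tumors. The fibroblast and endothelial sums were not higher in tumors. Of 12 fibroblast markers tested, 2 were called higher there and 4 lower, and of 5 endothelial markers tested 1 higher and 2 lower. Those called higher were COL1A2 and FAP of the fibroblast list and PECAM1 of the endothelial list. COL1A2 was at a mean of 2.1 CPM in the cells and 10.4 CPM in the tumors, and PECAM1 at 0.147 and 1.01 CPM. PDGFRB of the fibroblast list went the other way, at 21.6 and 1.05 CPM. Whether reads from mouse tissue were removed before counting is not given in the sources used here, and the part of host RNA in any difference was not tested.

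The tests were two-sided and used edgeR's quasi-likelihood F test in 1 fit over all 17 libraries, and a gene was called at a false discovery rate (FDR) under 0.05 with more than a 2-fold difference. Of the 15404 genes, 2671 (17.3%) were called higher in the RA tumors and 2330 (15.1%) lower. At the FDR alone, without the fold threshold, 11178 genes passed. The libraries of the 2 groups did not overlap for 12176 genes (79%). For 8014 genes (52%) the 95% interval of the log2 fold change lay wholly within 2-fold, and these are called alike below. The median absolute log2 fold change was 0.63. Counts of calls within a gene list are to be read beside these shares of all genes.

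Base composition and strand moved with these differences. From the lowest to the highest decile of transcript GC content, the median log2 fold change of RA tumors against ATRA cells went from 0.21 to -0.77. Between control tumors and DMSO cells, made with the same 2 kits and without retinoid, it went from 0.08 to -0.77. The median of the gene-by-gene difference between the 2 comparisons was 0.03 in the lowest decile and -0.05 in the highest, and reached 0.12 in between. Of the 860 genes that lie wholly within a gene of the other strand, 39.9% were called higher in the RA tumors and 14% lower, against 15.8% and 16% of the 7652 genes with no such overlap. The counting step's strand setting is not given in the sources used here. Genes with 10% or more of their exon bases within a gene of the other strand are therefore marked below as overlapped, and a gene that shares most of its exon bases with a gene model of its own strand is said to do so. Genes with neither are called clear. The part of GC content and overlap in any single gene's difference was not tested.

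**Figure D1:**
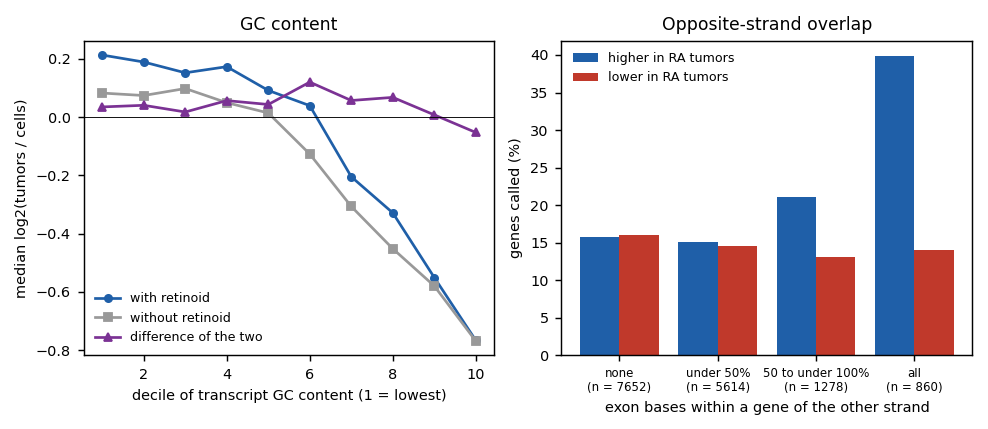
Left, the median log2(tumors / cells) by decile of transcript GC content with retinoid (blue), without retinoid (grey) and for the difference between them (purple). Right, the percentage of genes called higher (blue) and lower (red) in RA tumors by the share of exon bases inside a gene of the other strand, with 39.9% called higher where the overlap was complete and 15.8% where there was none.

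The genes of retinoid reception were lower in the RA tumors than in the ATRA cells. Of the 12 receptor and cofactor genes tested, 10 were called lower and 0 higher, with a median log2 fold change of -1.53, against 15.1% of all genes called lower and a median of -0.04. In all 12 every RA tumor lay below both ATRA libraries, where 79% of all genes had no overlap in either direction. RARB (ENSG00000077092.19, chr3:24687887-25597932 in GRCh38) encodes the receptor that is itself a textbook retinoic acid target. Its promoter is shown here because it holds the direct repeat of 2 receptor hexamers with a spacer of 5 bases (DR5) through which retinoic acid receptors act. The RefSeq sequence of GRCh38.p14, chr3:25428013-25428312 on the forward strand, is 300 bases long and spans the start of transcription, and the capitals mark the repeat, which begins 53 bases before that start.
RARB: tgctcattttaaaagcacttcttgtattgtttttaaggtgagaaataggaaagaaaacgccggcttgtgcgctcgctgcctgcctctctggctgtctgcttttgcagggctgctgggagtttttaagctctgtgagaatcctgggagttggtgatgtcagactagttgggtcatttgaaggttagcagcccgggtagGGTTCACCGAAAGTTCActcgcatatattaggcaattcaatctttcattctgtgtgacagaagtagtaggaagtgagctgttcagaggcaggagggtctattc
The search took the hexamer AGGTCA, in which the first base could also be G and the middle G could also be T, followed by any 5 bases and by another such hexamer, on either strand. It found this repeat in 1 of the 32 matched promoters of the 40 genes on the retinoid lists and in 31 of all 35116 promoters of the table (0.0883%). A match describes letters in this window only.

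RARB was at 27.8 and 28.4 CPM in the ATRA cells and 7.66, 9.75, 6.85 and 8.49 CPM in the RA tumors. All 4 tumors lay below both cell libraries, by a log2 fold change of -1.77 ± 0.13 (SE; edgeR FDR 1.95e-10). Without retinoid the order was the other way, with 0.866 ± 0.165 CPM (SD, n = 2) in DMSO cells and 3.59 ± 0.454 CPM (n = 5) in control tumors. Both end states stood above the mean of their own unexposed state, RA tumors above control tumors by 1.195 ± 0.12 (edgeR FDR 1.37e-05). The difference between the end states departed from that between the unexposed states by -3.81 ± 0.23 on the log2 scale (edgeR FDR 9.24e-11). RARA, the widely expressed receptor, was at 399.5 and 401 CPM in the cells and 89.3, 74.7, 67.3 and 68.4 CPM in the tumors, a log2 fold change of -2.42 ± 0.12 (edgeR FDR 9.47e-12). Its exons are 25.1% overlapped. RXRA, the common partner of the RAR receptors, was at 34.8 and 33.7 CPM in the cells and 5.74 to 8.85 CPM in the tumors (-2.28 ± 0.13).

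The proteins that carry retinoids mostly lay far below the cells in the RA tumors. CRABP2, which hands retinoic acid to the receptors, was at 118 and 118 CPM in the ATRA cells and 9.23, 9.899, 5.92 and 7.704 CPM in the RA tumors. No tumor came near the cells, and the log2 fold change was -3.85 ± 0.23 (edgeR FDR 4.37e-09). STRA6, the membrane receptor for vitamin A uptake, was at 76.3 and 76.05 CPM in the cells and 3.19, 4.6, 2.21 and 6.76 CPM in the tumors (-4.13 ± 0.28). CRABP1, a cytoplasmic carrier of retinoic acid, was less far apart at 80.8 and 81.5 CPM in the cells and 24.3 to 38.3 CPM in the tumors (-1.35 ± 0.18). Only RBP4, the serum carrier of retinol, went the other way among the 5 binding genes tested, from 0.165 and 0.224 CPM in the cells to 2.24 to 2.54 CPM in the tumors (3.59 ± 0.56), and it is wholly overlapped. CRABP2, STRA6 and CRABP1 are also overlapped by 10% or more.

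The CYP26 enzymes, which oxidize retinoic acid and are switched on by it, split. CYP26B1 (chr2:72129238-72147862) was at 43.6 and 44.5 CPM in the ATRA cells and 1.96, 1.398, 0.442 and 0.881 CPM in the RA tumors. Its tumors lay 38.7-fold below the cells (-5.28 ± 0.27, edgeR FDR 1.48e-11), and DMSO cells at 0.468 ± 0.264 CPM and control tumors at 0.568 ± 0.187 CPM were near the level of the RA tumors. CYP26A1 was at 0 and 0.0321 CPM in the cells and 0.951, 0.773, 1.19 and 0.327 CPM in the tumors, a low level in both that rests on 1 count in the cells and with 84.5% of its exon bases within another gene model of its own strand, and the ratio was 46.9 (95% counting interval 8.16 to 1875). DHRS3, a retinaldehyde reductase that retinoic acid induces, was at 1.98 and 1.44 CPM in the cells and 0.163 to 0.331 CPM in the tumors (-2.85 ± 0.45). Among 8 genes of retinoid synthesis and storage 2 were called higher and 2 lower, against 17.3% and 15.1% of all genes. ALDH1A2, a retinaldehyde dehydrogenase, was at 3.44 and 3.302 CPM in the cells and 0.486 to 0.671 CPM in the tumors (-2.52 ± 0.26, 20.7% overlapped), while LRAT, which stores retinol as esters, was at 0.0661 and 0.0962 CPM and 1.18 to 3.08 CPM (4.52 ± 0.63).

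**Figure D2:**
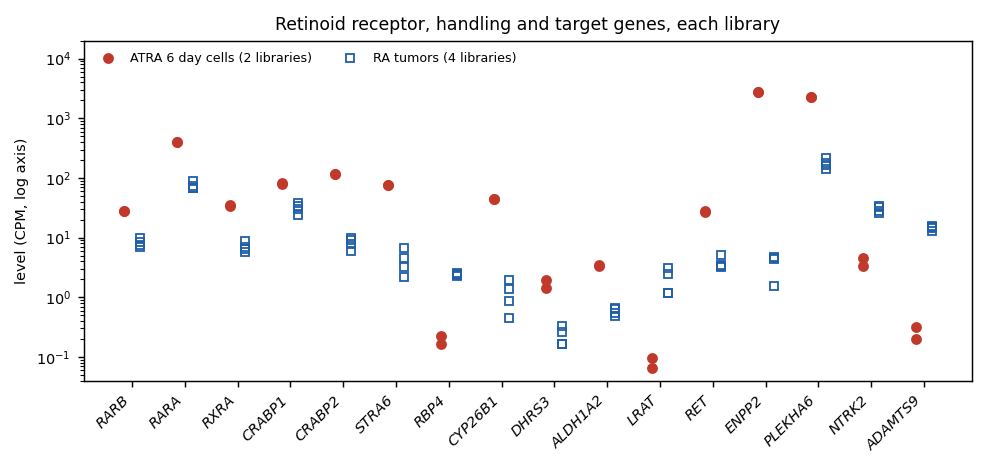
Level in CPM on a log axis of 16 retinoid receptor, handling and target genes described in the text, HOX genes apart, in each library, with the 2 ATRA 6 day libraries as filled red circles and the 4 RA tumors as open blue squares. In 12 the 4 squares sit below both circles, from a log2 fold change of -1.35 for CRABP1 to -9.52 for ENPP2, and in RBP4, LRAT, NTRK2 and ADAMTS9 they sit above. CYP26A1, at 0 in 1 ATRA library, has no place on a log axis and is not drawn.

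Other known retinoic acid targets did not move as 1 group. Of 12 tested, 4 were called higher and 6 lower, with a median of -1.65, against 17.3% and 15.1% of all genes called. RET, the receptor kinase of GDNF-family ligands, was at 27.5 and 26.96 CPM in the ATRA cells and 3.47, 5.15, 3.27 and 3.36 CPM in the RA tumors (-2.83 ± 0.19, edgeR FDR 5.17e-11). It was at 0.831 ± 0.0175 CPM in DMSO cells and 2.08 ± 0.574 CPM in control tumors, so the difference turned direction with retinoid, by -4.15 ± 0.33. ENPP2, which encodes the secreted enzyme autotaxin, was at 2725 and 2744 CPM in the ATRA cells and 4.53, 4.75, 4.46 and 1.57 CPM in the RA tumors. That gap of 734-fold (-9.52 ± 0.301, edgeR FDR 2.33e-11) was among the widest of all genes clear of overlap. PLEKHA6, an adaptor of cell junctions, was at 2272 and 2269 CPM and 218, 162, 180.1 and 141 CPM (-3.697 ± 0.14, 14.4% overlapped). It was at 11.5 ± 0.357 CPM in DMSO cells and 94.4 ± 13.3 CPM in control tumors. Genes that were higher in the RA tumors included NTRK2, the receptor of brain-derived neurotrophic factor, at 4.495 and 3.302 CPM in the cells and 25.9 to 34.04 CPM in the tumors (2.95 ± 0.38), and ADAMTS9, a matrix protease, at 0.198 and 0.321 CPM and 12.8 to 15.9 CPM (5.79 ± 0.45, 11.2% overlapped). Of 15 tested 3′ HOX genes and cofactors, 9 were called lower and 0 higher (median -1.38), against 15.1% and 17.3% of all genes. Only 2 of those 9 are clear of other genes, since HOX genes lie close together with antisense transcripts. Most were low, such as HOXA3 at 1.32 and 1.38 CPM in the cells and 0.2797 to 0.619 CPM in the tumors (-1.82, 63.02% overlapped), and HOXC5 was at 10.2 and 11.6 CPM and 2.87 to 3.52 CPM (-1.76, wholly within gene models of its own strand).

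The widest differences held genes close to silent in 1 state. Among genes clear of overlap, 6 stood at 5 CPM or more in the ATRA cells and under 0.1 CPM in the RA tumors, and 19 the other way round. ANGPT1, a ligand of the endothelial receptor TIE2, was at 71.1 and 69.3 CPM in the ATRA cells and 0.224, 0.1104, 0 and 0.196 CPM in the RA tumors (-9.004 ± 0.27). PYY, a gut and neural peptide, was at 10.8 and 10.4 CPM in the cells and 0, 0.0368, 0.0442 and 0 CPM in the tumors, with 2 counts in the tumors and a ratio of 521 (95% counting interval 144 to 4311). GDF10, a ligand of the TGF-beta superfamily, was at 51 and 50.05 CPM and 0.2797, 0.184, 0.0884 and 0.359 CPM (-7.73 ± 0.25). NOS1, neuronal nitric oxide synthase, was at 15.5 and 16.03 CPM in the ATRA cells against 0.0559, 0.0736, 0 and 0.163 CPM in the RA tumors (-7.53 ± 0.44, or -8.31 without the fourth RA tumor). SKAP1, an adaptor protein best known from T cells, was at 51.5 and 48.1 CPM and 0.2797, 0.147, 0.442 and 0.0326 CPM (-7.89 ± 0.299, or -8.5 when the third RA tumor was left out). Control tumors and DMSO cells lay below 1 CPM in every library for all 5 of these genes, which were thus abundant in the ATRA cells alone among the 4 groups.

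On the other side, NEUROD6 (chr7:31337465-31340726), a neuronal bHLH transcription factor, was at 0.331 and 0.449 CPM in the ATRA cells and 123, 156, 138 and 121 CPM in the RA tumors. All 4 tumors lay far above both cell libraries (8.41 ± 0.18, edgeR FDR 1.13e-17), as did control tumors at 117 ± 9.27 CPM above DMSO cells at 0.8603 ± 0.0202 CPM. FST, which encodes the activin and BMP antagonist follistatin, was at 0.0331 and 0 CPM in the cells and 21.6, 8.43, 16.04 and 9.14 CPM in the tumors, with 1 count in all in the cells, a ratio of 786 (95% counting interval 141 to 31067). KLB, a coreceptor of endocrine FGFs, had no counts in either ATRA library and 10.7, 9.49, 11.1 and 11.6 CPM in the tumors, which is at least 219-fold higher against a floor of 3 counts over both cell libraries. NRN1, the neurite growth factor neuritin, had none either and 17.2, 7.76, 7.82 and 10.2 CPM in the tumors, at least 220.4-fold higher. EBF2, a transcription factor of neural and fat cell development, had none in the ATRA cells and 3.97, 6.92, 6.67 and 5.16 CPM in the tumors, at least 116-fold higher. Floors and counting intervals, here exact binomial ones, cover counting error only. In all, 405 genes were called higher with 0 counts in both ATRA libraries, of which 131 lie wholly within a gene of the other strand and 173 are clear. Among genes with the largest fitted differences overlapped ones were frequent, such as SLC2A2, OMG, ZNF750 and RORA among those higher in tumors and SFT2D3 among those lower.

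Genes of cell division were higher in the RA tumors than in the ATRA cells. Of 56 G2/M genes, 38 were called higher and 0 lower (median log2 fold change 1.24), and of 43 G1/S genes 19 were called higher and 0 lower (median 0.92), against 17.3% of all genes called higher. In 55 of the 56 G2/M genes every RA tumor lay above both ATRA libraries, where 79% of all genes had no overlap in either direction. TOP2A, the topoisomerase that untangles chromosomes before mitosis, is shown by its promoter, since G2/M genes share CCAAT boxes. The RefSeq sequence of GRCh38.p14, chr17:40417847-40418146 on the reverse strand, holds 4 matches, written in capitals and read here as ATTGG, the other strand's form.
TOP2A: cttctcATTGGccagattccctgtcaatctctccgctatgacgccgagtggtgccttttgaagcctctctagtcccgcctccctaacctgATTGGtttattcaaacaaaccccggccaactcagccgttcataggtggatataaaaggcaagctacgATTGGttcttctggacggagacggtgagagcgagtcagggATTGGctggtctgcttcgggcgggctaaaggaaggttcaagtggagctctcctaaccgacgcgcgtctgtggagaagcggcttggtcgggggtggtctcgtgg
CCAAT on either strand was in 36 of the 47 matched G2/M promoters (76.6%), in 36.2% of the 12210 matched promoters of genes tested and in 34.6% of all 35116 promoters of the table. TTTGAA, the letters of the cell-cycle homology element, was in 31 of the 47 (66%), against 10.3% of the genes tested and 15.2% of all promoters. These are counts of letters, and no site was tested.

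TOP2A was at 184 and 181 CPM in the ATRA cells and 524, 694, 577 and 729 CPM in the RA tumors. Every tumor lay above both cell libraries, by 1.79 ± 0.11 (edgeR FDR 5.37e-11). MKI67, the proliferation antigen Ki-67, was at 89.4 and 88.4 CPM in the cells and 228, 284, 237 and 311 CPM in the tumors (1.58 ± 0.095, edgeR FDR 1.48e-11). RRM2, the ribonucleotide reductase subunit that limits DNA precursors, was at 36.5 and 37.8 CPM in the cells and 127, 172, 145 and 179 CPM in the tumors (2.07 ± 0.14, edgeR FDR 9.17e-10). CDK1, the kinase that starts mitosis, was at 21.9 and 22.1 CPM and 42.3, 57.4, 46.9 and 64.8 CPM (1.27 ± 0.13), which fell to 0.66 and below 2-fold after subtracting the median of genes of like GC content and length. TTK, a mitotic checkpoint kinase, differed by 1.69 and BIRC5, survivin, by 1.09, a call lost in a test against a 2-fold difference. KIF21B, a kinesin of neurons and dividing cells outside these lists, was at 1.59 and 1.38 CPM in the cells and 44.6, 52.2, 42.1 and 57.8 CPM in the tumors (5.05 ± 0.19).

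Without retinoid the order was the reverse. The medians of control tumors against DMSO cells were -0.88 for the G2/M list and -1.12 for the G1/S list, with 21 and 29 genes called lower and 0 higher. The test of the difference between the 2 contrasts called 55 of 56 G2/M genes and all 43 G1/S genes upward, against 11.1% of all genes. In all 56 G2/M genes the mean of the RA tumors lay between that of the ATRA cells and that of the DMSO cells. TOP2A was at 1007 ± 14.6 CPM (SD, n = 2) in DMSO cells, 182 ± 2.03 CPM (n = 2) in ATRA cells, 704 ± 56.9 CPM (n = 5) in control tumors and 631 ± 96.3 CPM (n = 4) in RA tumors. Of the 56 genes, 55 were called lower in ATRA cells than in DMSO cells, where 1927 of all 15404 genes were. Between RA tumors and control tumors 0 of the 56 were called in either direction, and 93 of all 15404 genes were. The mean of the RA tumors was still below that of the control tumors in 54 of the 56 (median log2 fold change -0.21). It was so in all 43 G1/S genes as well (median -0.25), where the median over all genes was 0.0075. Of 36 replication-dependent histone genes, 8 were called higher and 1 lower between the end states (median 0.62), against 17.3% and 15.1% of all genes, and 35 passed the test of the difference upward. The mean of the RA tumors lay between those of ATRA and DMSO cells in 26 of the 36 and below both in 9. HIST1H2BJ, a member of that list, was at 8.66 and 8.62 CPM in the ATRA cells and 20.03 to 35.7 CPM in the RA tumors (1.74), and HIST1H2AJ, the 1 called lower and not in a test against a 2-fold difference, was at 13.7 and 11.7 CPM and 3.89 to 8.49 CPM (-1.19). Neither kit selects poly(A) tails, which these transcripts lack.

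**Figure D3:**
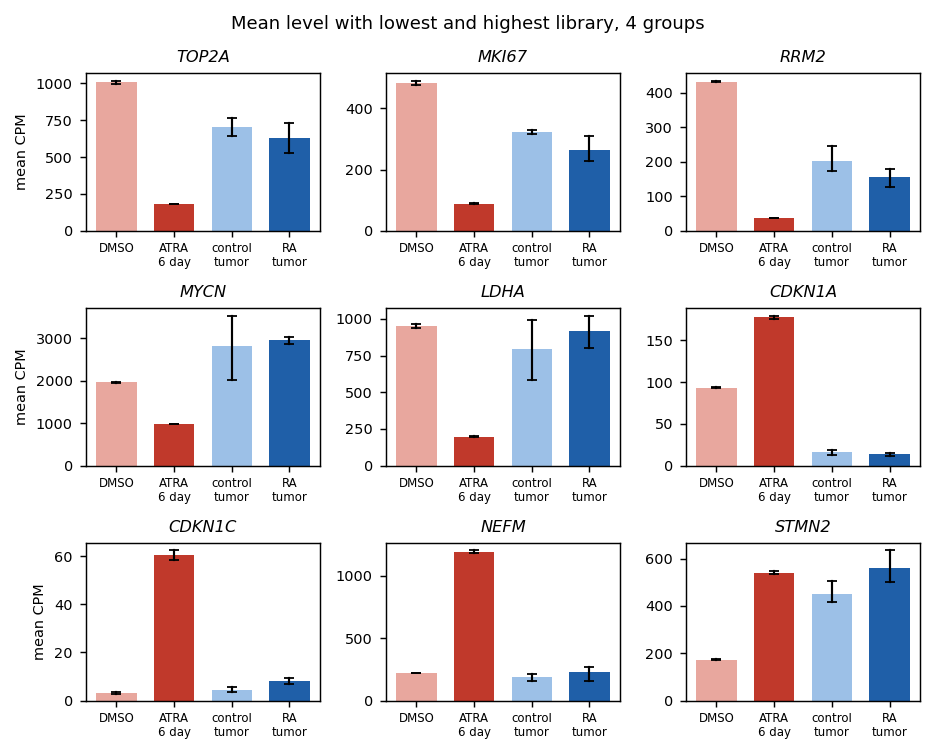
Mean CPM of 9 genes (bars, from 0) with the lowest and highest library of each group (lines) in DMSO cells (n = 2), ATRA 6 day cells (n = 2), control tumors (n = 5) and RA tumors (n = 4). TOP2A, MKI67 and RRM2 were lowest in the ATRA cells, CDKN1A, CDKN1C and NEFM were highest there, and STMN2 was alike in the ATRA cells and the RA tumors.

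MYCN (chr2:15940550-15947007), the amplified oncogene of this line, was at 970.4 and 992 CPM in the ATRA cells and 3040, 2937, 2975 and 2853 CPM in the RA tumors. The tumors were tightly grouped and lay 3.01-fold above the cells (1.59 ± 0.16, edgeR FDR 3.22e-07, 18% overlapped). Of 20 genes on the list of MYCN and nucleolar MYC targets, 12 were called higher and 0 lower (median 1.06), against 17.3% and 15.1% of all genes. The test of the difference was passed upward by 18 of them, against 11.1% of all genes. ODC1, the first enzyme of polyamine synthesis, was at 111 and 108 CPM in the cells and 338, 381, 373 and 407 CPM in the tumors (1.78 ± 0.084). LYAR, a nucleolar growth regulator, was at 3.83 and 4.04 CPM and 15.4 to 17.2 CPM (2.07 ± 0.11).

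The inhibitors of cyclin-dependent kinases moved in both directions. Of 12 CDK inhibitor, D cyclin and pocket protein genes, 3 were called higher and 4 lower, against 17.3% and 15.1% of all genes. CDKN1A, which encodes p21, was at 176 and 179.5 CPM in the ATRA cells and 14.8, 11.6, 13.9 and 15.5 CPM in the RA tumors (-3.67 ± 0.12, edgeR FDR 4.35e-15). CDKN1C, which encodes p57, was at 58.5 and 62.5 CPM in the cells and 9.398, 8.13, 7.25 and 6.99 CPM in the tumors (-2.94 ± 0.14, edgeR FDR 2.69e-13). Both were thus lower in every tumor. CDKN2A, which encodes p16 and ARF, was higher in the tumors, at 1.09 and 1.28 CPM and 7.03 to 8.98 CPM (2.77), and is wholly overlapped. CCND1, cyclin D1, was at 544 and 570.5 CPM in the ATRA cells and 81.9 to 134.1 CPM in the RA tumors (-2.44 ± 0.18, 29.4% overlapped), and DMSO cells held 613 ± 3.32 CPM.

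The ID genes, short-lived targets of BMP signaling that block bHLH transcription factors, were split between the end states. ID1 was at 2.38 and 2.53 CPM in the ATRA cells and 9.06, 3.17, 4.02 and 1.99 CPM in the RA tumors, and the groups overlapped. Its log2 fold change of 0.796 ± 1.02 was not called, with a 95% interval of -1.45 to 3.04 that reaches past 2-fold in both directions. It was 0.30 without the first RA tumor. ID2 was higher in every tumor, at 8.13 and 7.69 CPM in the cells and 20.8, 27.1, 28.4 and 22.4 CPM in the tumors (1.64 ± 0.13). ID3 was lower in every tumor, at 32.4 and 33.4 CPM and 3.64, 1.398, 2.298 and 1.796 CPM (-3.92 ± 0.41). ID4 was lower as well, at 8.196 and 7.57 CPM in the cells and 2.91, 3.02, 2.96 and 3.297 CPM in the tumors (-1.36 ± 0.15). Exons of ID2 and ID4 are 25.3% and 22.9% overlapped. In DMSO cells the 4 genes stood at 109 ± 0.894, 65.8 ± 1.81, 169.9 ± 1.12 and 19.03 ± 0.7601 CPM in that order, and all 4 were called lower in control tumors than in DMSO cells (medians -0.28 with and -3.64 without retinoid). The test of the difference was passed upward by all 4, with 5.57 ± 1.26 for ID1, 3.26 ± 0.17 for ID2, 2.19 ± 0.63 for ID3 and 1.15 ± 0.22 for ID4.

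Around the ID genes, ligands, receptors and inhibitors of BMP signaling did not share a direction. Of 14 ligands of the BMP and TGF-beta family tested, 6 were called higher and 6 lower, against 17.3% and 15.1% of all genes. TGFB2 was at 1249 and 1244 CPM in the ATRA cells and 166, 153, 171 and 169.8 CPM in the RA tumors (-2.92 ± 0.077, 11.6% overlapped), and INHBA, the activin subunit, was at 0.595 and 0.641 CPM and 9.398, 3.13, 6.67 and 5.09 CPM (3.27 ± 0.47, 13.8% overlapped). Among 16 receptor and SMAD genes, 5 were higher, 2 lower and 9 alike, against 17.3%, 15.1% and 52% of all genes. SMAD9, a BMP-receptor SMAD, was at 185 and 187 CPM in the cells and 487, 572, 583 and 552 CPM in the tumors (1.56 ± 0.092), while SMAD1, another of them, was at 134.4 and 133 CPM and 35.4, 47.95, 40.5 and 44.5 CPM (-1.67 ± 0.105). Of 18 inhibitors and feedback genes, 3 were higher and 6 lower, against 17.3% and 15.1% of all genes. SMAD6, the inhibitory SMAD that BMP signaling induces, was at 17.8 and 18.1 CPM in the ATRA cells and 2.13, 0.331, 0.972 and 0.424 CPM in the RA tumors (-4.39 ± 0.73), a value of -5.0 without the first RA tumor and a call that DESeq2 did not make at a log2 fold change of -4.14. SMAD7, the other inhibitory SMAD, was alike at 8.86 and 8.304 CPM and 6.04 to 11.2 CPM (-0.087, interval -0.74 to 0.57). NOG, which encodes the BMP antagonist noggin, was at 0.264 and 0.192 CPM in the cells and 2.298 to 3.86 CPM in the tumors (3.7 ± 0.49), and CHRD, which encodes chordin, was at 39.2 and 37.2 CPM and 4.31 to 7.78 CPM (-2.71 ± 0.15, 25.2% overlapped). Of 14 other BMP targets, 4 were higher and 5 lower, against 17.3% and 15.1% of all genes. The test of the difference was passed upward by 8 and downward by 1, against 11.1% and 12% of all genes. ATOH8 was at 47 and 50.3 CPM in the ATRA cells and 0.957 to 3.02 CPM in the RA tumors (-4.49 ± 0.41), with 172 ± 2.82 CPM in DMSO cells.

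Among structural genes of neurons none was called higher in the RA tumors. Of 22 neuronal cytoskeleton genes, 0 were called higher, 8 lower and 11 alike, against 17.3%, 15.1% and 52% of all genes, with a median of -0.78, and 3 of the 8 are clear of overlap. STMN2, a microtubule regulator of growing axons, was at 533 and 547 CPM in the ATRA cells and 512, 635, 597 and 499.9 CPM in the RA tumors. These groups overlapped, and the interval of -0.13 to 0.24 lay within 2-fold. MAP2, the microtubule protein of dendrites, was alike at 756 and 758 CPM and 733, 938, 878 and 739 CPM (0.12). DCX, doublecortin of migrating neurons, was at 916 and 909 CPM and 518, 624, 645 and 501 CPM, lower in every tumor but by less than 2-fold (-0.67 ± 0.101, interval -0.89 to -0.46). MAPT, which encodes tau, was at 493 and 492 CPM and 357, 335, 344 and 310.1 CPM (-0.55 ± 0.102, interval -0.76 to -0.34). The neurofilaments went further. NEFM, the medium chain, was at 1180 and 1204 CPM in the ATRA cells and 267, 220.2, 271 and 154 CPM in the RA tumors (-2.39 ± 0.17, edgeR FDR 1.75e-08), and NEFL, the light chain, was at 584 and 584 CPM and 229, 283, 257 and 199.6 CPM (-1.27 ± 0.11). DMSO cells held 219 ± 1.93 CPM of NEFM and 158 ± 2.24 CPM of NEFL, which is near the level of the RA tumors. Exons of NEFM and NEFL are 26.4% and 19.8% overlapped, and TUBB3, neuronal beta-tubulin at 2124 and 2225 CPM and 518 to 570.4 CPM (-2.01), shares nearly all of its exons with another gene model on its own strand.

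Adhesion and guidance genes moved both ways. Of 33 neural adhesion genes, 13 were called higher and 10 lower, against 17.3% and 15.1% of all genes. CNTN2, contactin-2 of axons, was at 3284 and 3307 CPM in the ATRA cells and 1356, 1205, 1331 and 1071 CPM in the RA tumors (-1.41 ± 0.17, edgeR FDR 6.77e-06). Its DMSO cells held 60.6 ± 0.194 CPM and its control tumors 472 ± 113 CPM, so CNTN2 turned direction with retinoid (-4.37 ± 0.27). Less the median of genes of like GC content and length the end-state difference was -0.897, below 2-fold. NCAM1, the neural cell adhesion molecule, was at 336 and 340.1 CPM in the cells and 40.5 to 67.2 CPM in the tumors (-2.58 ± 0.23, 15.7% overlapped). CNTNAP3, a neurexin relative, was higher in tumors, at 0.331 and 0.192 CPM and 9.41 to 14.1 CPM (5.47 ± 0.37). Of 45 axon guidance genes, 8 were higher and 13 lower, against 17.3% and 15.1% of all genes. DCC, the netrin receptor, was at 3.77 and 4.01 CPM in the ATRA cells and 42.1, 51.9, 47.98 and 49.6 CPM in the RA tumors (3.62 ± 0.15, 47.3% overlapped), and UNC5B, another netrin receptor, was at 41.2 and 38.8 CPM and 5.65, 2.47, 3.62 and 2.64 CPM (-3.54 ± 0.296). CXCR4, the chemokine receptor that guides migrating neurons and metastatic cells, was at 0.727 and 0.641 CPM in the cells and 44.9, 35.9, 27.6 and 17.7 CPM in the tumors (5.51 ± 0.79).

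Receptors of neurotrophic and other growth factors went in both directions. NTRK3, the neurotrophin-3 receptor TrkC, was at 9.32 and 8.69 CPM in the ATRA cells and 37.8, 40.8, 48.96 and 44.8 CPM in the RA tumors (2.26 ± 0.12, edgeR FDR 1.36e-12). Every tumor was thus higher for NTRK3 and, as given above, for NTRK2. NGFR, the low-affinity receptor p75, was at 26.8 and 24.4 CPM in the cells and 15.1, 8.98, 8.88 and 9.24 CPM in the tumors (-1.29 ± 0.23), is 96.6% overlapped, was not called in a test against a 2-fold difference and came to -0.56 less the GC and length median. ALK, the receptor kinase mutated in some neuroblastomas, was at 159.8 and 169.8 CPM and 31.5, 35.3, 34.7 and 37.02 CPM (-2.25 ± 0.12, 22.2% overlapped), with 22.1 ± 1.16 CPM in DMSO cells. KIT, the stem cell factor receptor, was at 5.09 and 6.06 CPM in the cells and 20.2, 30.3, 22.8 and 23.3 CPM in the tumors (2.12 ± 0.16).

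Synaptic, secretory and catecholamine genes were lower more often than higher. Of 33 synapse genes, 2 were called higher, 10 lower and 17 alike (median -0.36), against 17.3%, 15.1% and 52% of all genes. DLG2, a scaffold of the postsynaptic density, was at 272 and 270 CPM in the ATRA cells and 15.8, 11.4, 14.6 and 9.402 CPM in the RA tumors (-4.42 ± 0.12). SV2B, a synaptic vesicle protein, was the main exception, at 6.87 and 7.15 CPM and 97.8, 115, 116 and 129 CPM (4.03 ± 0.14). Of 11 granin and neuropeptide genes tested, 1 was higher and 5 lower, against 17.3% and 15.1% of all genes. GAL, the neuropeptide galanin, was at 331 and 345 CPM in the cells and 16.4, 9.49, 9.77 and 9.5 CPM in the tumors (-4.92 ± 0.19), and SCG2, secretogranin II, was at 695 and 699 CPM and 66.2, 55.7, 57.4 and 46.5 CPM (-3.63 ± 0.14). Of 12 catecholamine genes, 1 was higher and 6 lower (median -0.56), against 17.3% and 15.1% of all genes. The test of the difference was passed downward by 8 of them, against 12% of all genes. PNMT, which converts noradrenaline to adrenaline, was at 49.97 and 47.1 CPM in the ATRA cells and 1.06, 0.994, 0.707 and 0.979 CPM in the RA tumors (-5.69 ± 0.14). DBH, which makes noradrenaline and is 10.5% overlapped, was not called, at 3.702 and 3.69 CPM and 7.16, 2.502, 4.51 and 2.64 CPM, and the cells lay within the range of the tumors. TH, the first enzyme of the pathway, was low at 2.97 and 3.59 CPM in the cells and 1.902, 1.91, 1.32 and 1.27 CPM in the tumors (-1.04 ± 0.23). Its call was lost without the second ATRA library (-0.90), the third RA tumor (-0.96) or the fourth (-0.92), with DESeq2 (-0.96) or its size factors (-0.95), with protein-coding genes alone (-0.965) and in a test against a 2-fold difference, and less the GC and length median its difference was -0.35.

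Ion channel genes numbered 12 higher and 9 lower of 39 tested, against 17.3% and 15.1% of all genes. Without the second ATRA library 7 were higher. CACNA1G, a T-type calcium channel, was higher in tumors, at 0.562 and 0.513 CPM in the ATRA cells and 4.95 to 7.51 CPM in the RA tumors (3.495 ± 0.32, 14.2% overlapped).

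Among the transcription factors of the adrenergic neuroblastoma state, 3 of 14 were higher and 5 lower, against 17.3% and 15.1% of all genes. PHOX2A, a homeobox factor of sympathetic neurons, was at 74.4 and 75.9 CPM in the ATRA cells and 10.6, 9.05, 10.7 and 6.95 CPM in the RA tumors (-3.02 ± 0.18). GATA3 was lower in every tumor, at 222 and 217 CPM in the cells and 29.4, 36.6, 39.5 and 30.3 CPM in the tumors (-2.69 ± 0.12). ISL1, a LIM-homeodomain factor of sympathetic neurons, was higher, at 5.35 and 5.67 CPM and 12.4, 26.7, 23.9 and 12.6 CPM (1.78 ± 0.46, not called in a test against a 2-fold difference), and DMSO cells held 52.4 ± 0.0673 CPM. Of 12 mesenchymal-state genes, 5 were higher and 3 lower, against 17.3% and 15.1% of all genes. VIM, vimentin, was at 42.3 and 44.1 CPM in the cells and 183, 164, 154 and 181 CPM in the tumors (1.98 ± 0.101), and is 42% overlapped. PRRX1, a mesenchymal homeobox factor, was at 1.26 and 1.19 CPM and 6.32, 11.8, 7.997 and 19.4 CPM (3.24 ± 0.46), while SNAI1, an inducer of epithelial-mesenchymal transition, was at 34.4 and 33.9 CPM and 8.45, 4.6, 4.73 and 4.54 CPM (-2.65 ± 0.24).

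Genes of hypoxia and glycolysis were called higher in the RA tumors far more often than lower. Of 35 tested, 17 were called higher and 2 lower (median 1.1), against 17.3% and 15.1% of all genes. In 28 every RA tumor lay above both ATRA libraries and in 2 below, where 79% of all genes had no overlap in either direction. Without retinoid 10 were higher and 2 lower (median 0.23), against 17.9% and 14.2% of all genes. LDHA, the enzyme that turns pyruvate into lactate, is shown by its promoter, since the hypoxia-inducible factors bind ACGTG. The RefSeq sequence of GRCh38.p14, chr11:18394313-18394612 on the forward strand, holds 5 matches in 3 runs of capitals. Where the run reads CACGTG, the same letters stand on both strands and 2 matches overlap.
LDHA: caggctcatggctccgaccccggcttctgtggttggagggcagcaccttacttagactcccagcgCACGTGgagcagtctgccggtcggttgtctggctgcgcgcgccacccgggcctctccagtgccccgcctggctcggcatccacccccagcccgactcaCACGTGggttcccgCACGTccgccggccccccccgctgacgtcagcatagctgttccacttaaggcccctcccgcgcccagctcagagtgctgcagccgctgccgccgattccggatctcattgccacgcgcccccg
ACGTG on either strand was in 15 of the 31 matched promoters of the list (48.4%), in 25.6% of the matched promoters of genes tested and in 21.4% of all promoters. No binding was measured here.

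LDHA was at 195 and 199 CPM in the ATRA cells and 975, 1022, 880.5 and 803 CPM in the RA tumors, with every tumor above both cell libraries (2.22 ± 0.19, edgeR FDR 1.14e-07). DMSO cells at 950.5 ± 17.9 CPM and control tumors at 795 ± 174 CPM were near the RA tumors, so that the ATRA cells stood apart and the difference departed from the unexposed states by 2.48 ± 0.24. PDK1, the kinase that keeps pyruvate out of the mitochondrion, was at 11.9 and 11.8 CPM in the ATRA cells and 269.8, 271, 224 and 141 CPM in the RA tumors (4.26 ± 0.498). STC2, a stress-induced glycoprotein, was at 3.34 and 3.05 CPM and 101, 85.6, 73.8 and 67.02 CPM (4.68 ± 0.29). P4HA1, a collagen prolyl hydroxylase, was at 8.49 and 8.304 CPM and 71.5, 65.8, 48.8 and 38.5 CPM (2.74 ± 0.44). ADM, the vasodilator adrenomedullin, was at 0.727 and 0.288 CPM in the cells and 33.3, 14.1, 12.7 and 5.55 CPM in the tumors (4.99 ± 1.21, or 5.78 without the first ATRA library). The fourth tumor was the lowest of the 4 for PDK1, STC2, P4HA1 and ADM, and all 4 tumors lay above both cell libraries for each. CA9, a membrane carbonic anhydrase and a common hypoxia marker, is 35.7% overlapped and was low at 0.0331 and 0.0641 CPM and 1.68, 1.21, 0.663 and 0.424 CPM, with 3 counts in the cells and a ratio of 19 (95% counting interval 6.28 to 93.6). EGLN3, the oxygen-sensing prolyl hydroxylase, ran against the list, at 191 and 199 CPM in the ATRA cells and 19.02, 12.2, 10.3 and 6.37 CPM in the RA tumors (-4.06 ± 0.43).

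Angiogenic factors were higher for 8 of 17 and lower for 4, against 17.3% and 15.1% of all genes. VEGFA, the main endothelial growth factor, was at 104 and 105 CPM in the ATRA cells and 529.7, 342, 290.4 and 148 CPM in the RA tumors. Every tumor lay above the cells, but the tumors spread over more than 3-fold and the log2 fold change of 1.65 ± 0.697 was not called (edgeR FDR 0.0529). It was called without the fourth tumor (1.91), with DESeq2 or its size factors (1.74 each), with protein-coding genes alone (1.73) and with voom and a variance for each group (1.47). PGF, placental growth factor, was at 1.62 and 1.92 CPM and 25.96, 14.4, 14.9 and 8.85 CPM (3.15 ± 0.66), and STC1, stanniocalcin, was at 5.85 and 5.55 CPM and 151, 122, 184 and 144 CPM (4.72 ± 0.42). VEGFC, the lymphatic growth factor, was lower at 4.96 and 6.22 CPM in the cells and 0.2797, 0.294, 0.309 and 0.457 CPM in the tumors (-4.01 ± 0.202) and is overlapped.

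Lipid synthesis genes were lower in tumors with or without retinoid. Of 33 genes of cholesterol and fatty acid synthesis, 0 were called higher and 16 lower between the end states (median -0.999), and 1 was higher and 24 lower between the unexposed states (median -1.43), where 17.9% of all genes were called higher and 14.2% lower. Only 1 passed the test of the difference upward and 2 downward, against 11.1% and 12% of all genes. DHCR7, the last enzyme of cholesterol synthesis, was at 190.3 and 189.9 CPM in the ATRA cells and 25.2, 25.6, 21.8 and 27.98 CPM in the RA tumors (-2.91 ± 0.093, edgeR FDR 1.26e-15). FADS2, a fatty acid desaturase, was at 443 and 452 CPM and 87.6 to 102 CPM (-2.25 ± 0.06, 12.03% overlapped). INSIG1, the sterol sensor, was at 86.1 and 91.8 CPM in the cells and 36.3 to 46.7 CPM in the tumors (-1.11 ± 0.086, not called in a test against a 2-fold difference). HMGCS1, early in the mevalonate pathway, was alike at 148 and 152 CPM and 88.04 to 133 CPM (interval -0.65 to -0.12, 48.9% overlapped). Serum was in the culture medium, and the lipid supply of the tumors was not measured.

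Stress genes differed by list. Of 25 targets of ATF4, the factor of the amino acid response, 0 were higher, 7 lower and 13 alike, against 17.3%, 15.1% and 52% of all genes, so the alike ones were no more frequent than among all genes. CHAC1, a glutathione-degrading enzyme, was at 8.72 and 9.43 CPM in the ATRA cells and 1.94 to 2.71 CPM in the RA tumors (-1.96 ± 0.22), while ASNS, asparagine synthetase, was alike at 112 and 117 CPM and 83.4 to 96.3 CPM (interval -0.63 to -0.14), nearly all of it within another gene model of its own strand. Of 27 unfolded protein and heat shock genes, 4 were higher, 2 lower and 18 alike, against the same 17.3%, 15.1% and 52%. BAG3, a cochaperone of HSP70, was at 47.7 and 47.5 CPM and 1.02 to 2.39 CPM (-4.899 ± 0.199). HSPD1, the mitochondrial chaperonin, was at 325 and 321 CPM in the cells and 784 to 967 CPM in the tumors (1.43 ± 0.082), and HSP90AB1, the constitutive HSP90, was alike at 1873 and 1888 CPM and 2488 to 2730 CPM. Of 24 immediate early genes, 8 were higher and 3 lower, against 17.3% and 15.1% of all genes. Without the first RA tumor 5 were higher. FOSL2 was at 4.73 and 4.87 CPM in the cells and 21.02 to 22.99 CPM in the tumors (2.198 ± 0.12, 15.3% overlapped), and JUND was at 212 and 212 CPM and 36.98 to 50.7 CPM (-2.34 ± 0.11).

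Genes of cell death did not share a direction. Of 24 pro-apoptotic genes, 4 were higher, 6 lower and 12 alike, near the 17.3%, 15.1% and 52% of all genes for the higher and the alike, and of 10 anti-apoptotic genes 3 were higher, 0 lower and 7 alike. BCL2, the founding survival gene of its family, was at 2.41 and 1.96 CPM in the ATRA cells and 22.99, 18.8, 18.6 and 19.9 CPM in the RA tumors. All 4 tumors lay 9.17-fold above the cells on average (3.196 ± 0.16, edgeR FDR 1.39e-12), and DMSO cells held 8.56 ± 0.0486 CPM. BMF, a BH3-only inhibitor of BCL2 proteins, was at 15.1 and 15.2 CPM in the ATRA cells and 3.804, 3.75, 3.23 and 4.505 CPM in the RA tumors (-1.98 ± 0.15, edgeR FDR 5.31e-10, 10.2% overlapped), with 3.29 ± 0.1399 CPM in DMSO cells and 4.17 ± 0.807 CPM in control tumors. BAX, the pore-forming effector, was alike at 15.6 and 16.1 CPM and 12.03, 9.61, 12.3 and 15.2 CPM (interval -0.63 to -0.097). Of 24 p53 targets, 8 were higher and 5 lower, against 17.3% and 15.1% of all genes. DDB2, of nucleotide excision repair, was at 8.69 and 8.14 CPM in the ATRA cells and 23.1 to 27.9 CPM in the RA tumors (1.54 ± 0.101), in the direction opposite to CDKN1A, which is on the same list.

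Growth factor and matrix genes held some of the largest differences at high expression. Of 17 genes of the insulin-like growth factor axis, 5 were higher and 1 lower, against 17.3% and 15.1% of all genes. IGFBP5, an IGF-binding protein of the matrix, was at 3.54 and 3.56 CPM in the ATRA cells and 891, 538, 681 and 581 CPM in the RA tumors (7.56 ± 0.401, edgeR FDR 4.03e-09), and is 17.2% overlapped. Control tumors at 865 ± 241 CPM against DMSO cells at 6.16 ± 0.484 CPM showed the same direction. IGFBP4 was at 8.46 and 10.3 CPM in the ATRA cells and 123, 110.5, 93.98 and 131 CPM in the RA tumors (3.61 ± 0.17), with 117 ± 0.292 CPM in DMSO cells. Of 47 collagen and matrix genes, 11 were higher and 15 lower, against 17.3% and 15.1% of all genes. LAMA5, a laminin chain of basement membranes, was at 384 and 401 CPM in the ATRA cells and 21.8, 17.96, 14.6 and 15.7 CPM in the RA tumors (-4.496 ± 0.19), and COL14A1, a fibril-associated collagen, was at 3.73 and 4.91 CPM and 24.8, 26.5, 21.3 and 32.1 CPM (2.6 ± 0.19). ITGA4, the alpha-4 integrin that binds matrix and endothelium, was higher in tumors, at 1.49 and 1.41 CPM and 53.98 to 84.4 CPM (5.55 ± 0.25), and is 32.9% overlapped. Of 29 Hedgehog and Wnt genes, 7 were higher and 9 lower, against 17.3% and 15.1% of all genes. GLI3, the main repressor among the Hedgehog factors, was at 234 and 233 CPM in the cells and 3.02, 2.69, 2.61 and 4.05 CPM in the tumors (-6.22 ± 0.15, edgeR FDR 1.74e-15). ARHGAP36, an activator of the Hedgehog factors, was at 1.62 and 1.25 CPM and 36.1, 60.1, 69.1 and 107 CPM (5.58 ± 0.496), with 228 ± 1.35 CPM in DMSO cells.

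Interferon and antigen presentation genes did not lean to 1 side. Of 22 interferon response genes 5 were higher and 5 lower, and of 10 class I genes 2 in each direction, against 17.3% and 15.1% of all genes. IFI44L was at 326 and 320.3 CPM in the ATRA cells and 74.2, 76.2, 65.8 and 144 CPM in the RA tumors (-1.84 ± 0.37). IFIT1, with no counts in the cells and 5.48, 5.19, 6.14 and 5.52 CPM in the tumors, lies wholly inside a gene of the other strand, as do IFIT2 and IFIT3. IRF7, the interferon regulatory factor, is clear of overlap and was at 0.0331 and 0 CPM in the cells and 5.15, 3.42, 3.98 and 3.297 CPM in the tumors, with 1 count in all in the cells and a ratio of 235 (95% counting interval 41.9 to 9303). B2M, the light chain of class I molecules, was not called, at 18.97 and 16.96 CPM and 22.3, 33.1, 24.8 and 39.5 CPM (interval 0.27 to 1.22).

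Most nuclear genes of the respiratory chain and most ribosomal protein genes were alike within 2-fold. Of 47 nuclear genes of the respiratory chain, 42 were alike, 1 was higher and 2 lower, against 52% of all genes alike. Of 78 cytosolic ribosomal protein genes, 59 were alike, 11 higher and 0 lower, with a median of 0.52. In 63 of the 78 every RA tumor lay above both ATRA libraries and in 5 below, where 79% of all genes had no overlap. RPL27 was the widest of these named, at 137 and 142 CPM in the ATRA cells and 733, 675, 688 and 604 CPM in the RA tumors (2.28 ± 0.11), and between the unexposed states it differed by 1.97. Of the 13 mRNAs of the mitochondrial genome, 7 were alike, near the 52% of all genes, 3 higher and 2 lower. MT-CO1, a subunit of cytochrome oxidase, was at 11360 and 11610 CPM in the cells and 15350, 10230, 11240 and 10170 CPM in the tumors (interval -0.34 to 0.405). MT-ND6, the 1 mRNA encoded on the light strand, was at 88.01 and 77.5 CPM and 643, 366, 458 and 285 CPM (2.402 ± 0.34). Among abundant alike genes, EEF1A1, the translation elongation factor, was at 4823 and 4912 CPM in the cells and 6554, 6535, 6752 and 6457 CPM in the tumors (interval 0.29 to 0.57, 38.04% overlapped). MAP1B, a microtubule protein of axons, was at 4806 and 4773 CPM and 3726, 4215, 4364 and 4052 CPM (interval -0.38 to -0.074).

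The comparison of control tumors with DMSO cells shares no library with that of the end states and has the same 2 kits and places of growth. It called 2755 genes higher (17.9%) and 2186 lower (14.2%). Of the end-state calls, 2733 were called in the same direction there, which is 54.6% of the end-state calls and 55.3% of the others, and 282 were called in the opposite direction. Across the 15404 genes the log2 fold changes of the 2 comparisons correlated at r = 0.726 (Spearman rho = 0.538), a description over genes that share libraries and base composition. The test of the difference itself called 1715 genes upward (11.1%) and 1850 downward (12%). Genes called between the end states but not between the unexposed states, with the difference called, numbered 1197, of which 585 were higher and 612 lower in the RA tumors. Genes called between the unexposed states alone, alike in the end states and with the difference called, numbered 576.

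Genes of the first kind included KALRN, a regulator of dendritic spines, at 748 and 756 CPM in the ATRA cells and 192, 166, 178 and 179 CPM in the RA tumors (-2.07 ± 0.066), with 117 ± 0.461 CPM in DMSO cells and 157 ± 10.4 CPM in control tumors. TPX2, a mitotic spindle factor, was of the same class in the other direction, at 67.2 and 65.95 CPM in the ATRA cells and 161, 196, 172 and 205 CPM in the RA tumors (1.46 ± 0.084). PLXNA4, a semaphorin coreceptor of axons, was of the second kind. It was at 1.92 ± 0.0186 CPM in DMSO cells and 66.8 ± 10.2 CPM in control tumors and alike in the end states, at 124 and 129 CPM in the ATRA cells and 110.3, 90.5, 110.1 and 102 CPM in the RA tumors (interval -0.54 to -0.055). MYBL2, a cell-cycle transcription factor, was alike in the end states at 89.3 and 85.9 CPM and 102, 125, 96.7 and 132 CPM (interval 0.18 to 0.58), with 529 ± 1.23 CPM in DMSO cells and 124 ± 6.25 CPM in control tumors. Of genes that turned direction, AHR, the aryl hydrocarbon receptor, was at 71.6 and 73.96 CPM in the ATRA cells and 7.94, 7.54, 7.29 and 5.94 CPM in the RA tumors (-3.35 ± 0.13), against 1.98 ± 0.333 CPM in DMSO cells and 5.28 ± 0.934 CPM in control tumors. POLA2, a subunit of DNA polymerase alpha, turned the other way, at 11.1 and 11.5 CPM and 25.8, 29.6, 26.4 and 31.8 CPM (1.33 ± 0.089) against 77.3 ± 0.801 CPM and 34.5 ± 1.61 CPM. AHR is 25.7% overlapped, and AHR and POLA2 share most of their exon bases with another gene model on their own strand.

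**Figure D4:**
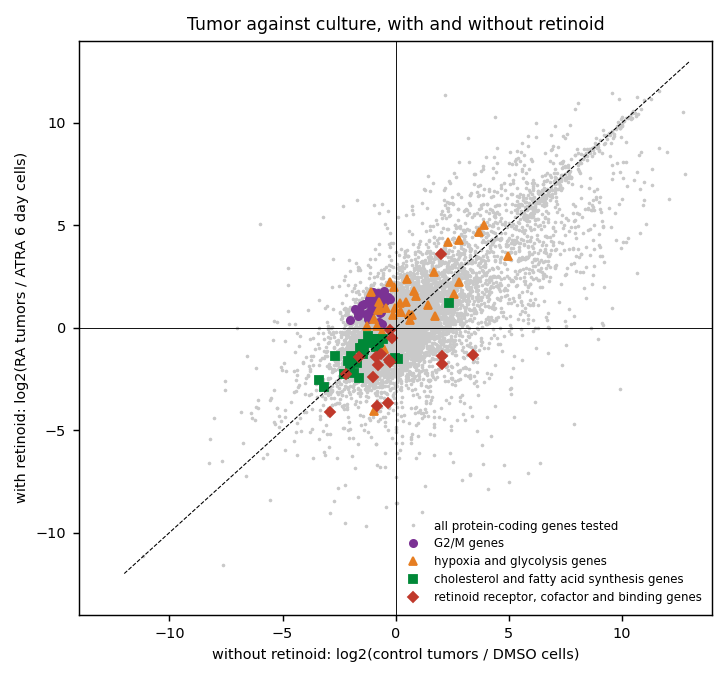
Each grey point is 1 of the 15404 protein-coding genes tested, by its log2 fold change between control tumors and DMSO cells (x) and between RA tumors and ATRA 6 day cells (y), and the dashed line marks equal values (r = 0.726). G2/M genes (purple) lie above the line with a median of 1.24 against -0.88, and retinoid receptor, cofactor and binding genes (red) mostly lie below it.

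**Figure D5:**
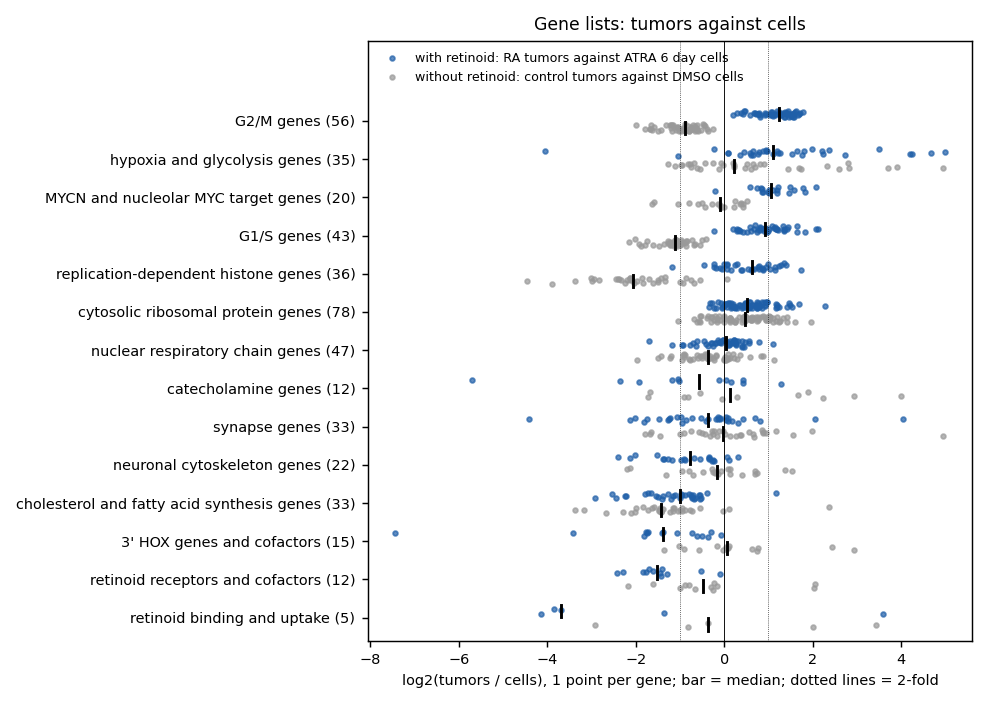
Log2 fold change of each gene of 14 lists, 1 point per gene, between RA tumors and ATRA 6 day cells (blue) and between control tumors and DMSO cells (grey), with the median as a black bar and the number of genes in parentheses. The medians of the G2/M list are 1.24 and -0.88, those of the cholesterol and fatty acid list -0.999 and -1.43.

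Set against the unexposed state of its own growth site, each end state had moved by a different number of genes. Between RA tumors and control tumors 70 genes were called higher and 23 lower, and between ATRA cells and DMSO cells 2267 and 1927. These comparisons share libraries with the end-state comparison and have unequal numbers of replicates and spread, with a biological coefficient of variation of 13.88% in tumors and 2.648% in cells, so the counts are given side by side only. The same limit holds for counts within the lists above. For the receptor and cofactor list 6 of 12 were called higher in ATRA cells than in DMSO cells, where 2267 of all 15404 genes were. In RA tumors against control tumors 1 of the 12 was called higher, where 70 of all 15404 genes were. For the cytoskeleton list the counts were 11 of 22 and 0.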

How the data were processed

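The deposited values are expected counts per gene from RSEM 1.3.3, not normalized. Before that, per the submitters' processing notes, the authors used Trim Galore 0.4.4 for trimming and STAR 2.7.10a for alignment to hg38. The annotation release, the strand setting and any removal of mouse reads are not given in the sources used here. Both tables were joined on gene identifier, protein-coding genes were taken from GENCODE release 44, expected counts were rounded, and edgeR 4.0.16 (TMM, filterByExpr with a minimum count of 10, quasi-likelihood F test) was fitted once over 17 libraries in 6 groups, with Benjamini-Hochberg adjustment over 25787 genes. CPM are counts divided by the TMM-scaled library size and multiplied by 1e6. Values are means ± SD over libraries, and log2 fold changes ± SE. Nothing in the labels says that replicates came from separate cultures, so p-values measure the spread between these samples only. The fit was checked on counts simulated from these libraries with known changes in a subset of genes. The simulation gave every library the same spread, so it does not cover the unequal spread of cells and tumors. DESeq2 1.42.0 and limma 3.58.1 served as alternatives.

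The comparison, gene lists and tests were chosen with earlier results of these data known. Genes were named by a rule: the 12 widest calls in each direction, up to 4 called members per list in each direction, a fixed set of retinoid, BMP, cell-cycle and neuronal genes, the 8 strongest of each class of the difference test and the 10 most abundant alike genes. Of these, the text gives those with a role stated, and a few are not reported here.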

Additional observations from a re-analysis of the deposited data

Results flagged for a closer look

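In 162 groups of tumor libraries behind the genes named above, 9 had 1 library apart from the rest by Dixon's test, and chance alone gives about 1 in 20. All 9 lay among the RA tumors, which made up 147 of the 162 groups. The fourth RA tumor was apart for ENPP2 at 1.57 CPM (others 4.46 to 4.75), for IFI44L at 143.5 CPM (others 65.8 to 76.2), for DDB2 at 27.9 CPM (others 23.1 to 23.9) and for VEGFC at 0.457 CPM (others 0.28 to 0.309). The first was apart for GAL at 16.4 CPM (others 9.49 to 9.77), NGFR at 15.1 CPM (others 8.88 to 9.24) and SNAI1 at 8.45 CPM (others 4.54 to 4.73). The second was apart for RET at 5.15 CPM (others 3.27 to 3.47) and the third for HOXA3 at 0.619 CPM (others 0.28 to 0.331). In each of the 9 genes the tumor that stood apart was on the same side of both ATRA libraries as the other tumors.

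The difference between tumors and cells itself differed with and without retinoid, by the test of the difference, for 1715 genes upward and 1850 downward. Upward these included 55 G2/M genes, 43 G1/S genes, 35 histone genes, 18 genes of the MYCN and nucleolar list, 4 ID genes and 8 other BMP targets, and downward 8 catecholamine genes. Single genes with this result were ID1 (5.57), ID2 (3.26), ID3 (2.19), ID4 (1.15) and LDHA (2.48) upward, and CNTN2 (-4.37), RET (-4.15) and RARB (-3.81) downward, each on the log2 scale.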

How the results depend on the processing

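The number of genes called between RA tumors and ATRA cells was 5001 and stayed within 1.5 times of that with DESeq2's size factors (4969), no filter on low counts (5248), DESeq2 (4909), the 6 libraries alone (4832), protein-coding genes alone (4980), voom with a variance for each group (5100) and a test against a 2-fold difference (3736), and it was 4797 to 4996 when each library was left out in turn. The share of calls that were higher was 53.4%, and 58% with DESeq2. The deviations of ATRA cells and RA tumors with the same replicate number correlated at -0.0017 and -0.018. Whether replicate numbers pair the cultures with each other was not tested. A fit with a replicate block called 4888 genes. Restricting counts to the 9027 genes clear of other genes was chosen after seeing the data. It tests fewer genes and left 2828 calls between the end states (1433 higher, 1395 lower), 2753 between the unexposed states (1445 higher, 1308 lower), 2183 in the difference (1071 upward, 1112 downward) and 4878 alike genes. In that setting list counts came to 2 lower for HOX genes, 3 lower for neuronal cytoskeleton, 5 lower for Hedgehog and Wnt, and, among higher genes, 5 for histones, 8 for adhesion, 4 for axon guidance, 4 for p53 targets, 4 for immediate early genes, 6 for ribosomal proteins and 5 for collagens and matrix. Subtracting the median of genes of like GC content and length, also chosen after seeing the data, left 4260 calls, of which 61.8% were higher, and moved lower channel genes from 9 to 5. With each library left out, higher channel genes ran from 7 to 12, the lowest without the second ATRA library, and higher immediate early genes from 5 to 8, the lowest without the first RA tumor. The cause was not tested. Of 147 genes described in the text, 137 kept their side of the call between the end states under every alternative run and 0 reversed direction. The other 10 were BIRC5, HIST1H2AJ, INSIG1, ISL1, NGFR and TH, not called in a test against a 2-fold difference, CDK1, CNTN2, NGFR and TH, not called less the GC and length median, SMAD6, not called by DESeq2, and VEGFA, called under 5 settings. TH was also not called with the replicate block (-0.85). With 2 ATRA libraries, the spread of that group rests largely on the other groups of the fit, and a 0 in both allows up to 0.0488 CPM by counting error.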

Other observations

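Schwann cell markers, 9 in all, summed to 14.8 to 16.3 CPM in the ATRA cells and 11.3 to 13.5 CPM in the RA tumors, with 5 of them above 1 CPM in the tumors and 1 in the cells. Skin and fat markers (12) summed to 15.4 to 15.8 CPM in the cells and 9.75 to 13.9 CPM in the tumors. Skeletal muscle markers (10) summed to 7.98 to 8.09 CPM in the cells and 6.76 to 9.43 CPM in the RA tumors, and reached 282 CPM in 1 control tumor. Red cell markers (9) summed to 0.991 to 1.22 CPM in the cells and 1.43 to 3.3 CPM in the RA tumors. Mitochondrial transcripts took 3.26% to 3.27% of counts in the ATRA cells and 3.1% to 5.07% in the RA tumors.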
